A study of Mus musculus with 4 samples.

Results

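Teneurins and latrophilins are 2 families of cell-surface proteins that bind each other across the gap between neurons. Their genes are described here across 4 mouse brain regions. The members were the 4 teneurin genes (Tenm1 to Tenm4) and the 3 latrophilin genes (Adgrl1 to Adgrl3, older symbols Lphn1 to Lphn3), found by symbol in the array's annotation through 15 probe sets that each carry 1 symbol. All 7 were found, among 19938 genes named in this way. All 7 also passed the level floor that decided which genes were compared, set at 8.56 log2 units, the middle of the gene levels, which the strongest array of 10908 genes exceeded.

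The tissue came from ICR mice at embryonic day 17.5, an age at which axons of these regions are growing and forming their first contacts. The cerebellum was pooled from 13 mice, the olfactory bulb from 14, the pontine nucleus from 15 and the superior colliculus from 16, with no treatment or mutation named for any of them. Each pool was hybridised to 1 Affymetrix array, so each region is a single measurement with no SD and no p-value, and a region cannot be told apart from its preparation. The values are log2 signals per probe set, and a difference of 1 log2 unit is 2-fold.

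Teneurins are large proteins that cross the membrane once, act as dimers and carry a very long extracellular part. They bind teneurins on other cells, and they bind latrophilins, which are adhesion-type G-protein-coupled receptors with a lectin-like domain at the outer end. Latrophilins take a second class of ligand, the FLRT proteins, and the UNC5 netrin receptors can join that complex. In the visual system and the hippocampus these proteins are known for matching axons to their target cells and for forming synapses.

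Each regional label was set beside 6 marker genes of that region. The lists were chosen with earlier results of these data known, so this is not an independent check of the labels. On each of the 4 arrays, 6 of 6 markers of the labelled region exceeded their average over the other 3 arrays. The median excess was 3.91 for the bulb, 3.40 for the superior colliculus, 3.18 for the pontine nucleus and 3.06 for the cerebellum. The array medians over all probe sets lay between 8.07 and 8.13. As a yardstick of measurement noise, 207 vomeronasal receptor and beta defensin genes were taken, all of them below the level floor. Of their differences between pairs of arrays, 95% were at most 0.41 log2 units. That yardstick covers weak signals on these arrays and not the variation between animals or dissections, so a difference above 0.41 is not thereby shown to repeat.

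For reference, the sequence before the outermost annotated start is shown for 1 member of each family, the least variable one and a variable one. RefSeq (GRCm38.p6) gave 10 start windows for the 7 genes, and only 2 of them lay at the outer start of their gene. These 2 are printed 5′ to 3′ on the strand of the gene, the 250 bases up to the start, with every CpG dinucleotide in capitals.
Adgrl1, chr8:83899848-83900097, plus strand: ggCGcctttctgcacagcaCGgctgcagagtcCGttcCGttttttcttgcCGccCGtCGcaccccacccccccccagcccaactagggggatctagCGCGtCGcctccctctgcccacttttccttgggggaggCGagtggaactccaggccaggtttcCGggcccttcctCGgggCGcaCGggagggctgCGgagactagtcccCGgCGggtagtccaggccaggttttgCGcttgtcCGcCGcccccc
Tenm4, chr7:96170994-96171243, plus strand: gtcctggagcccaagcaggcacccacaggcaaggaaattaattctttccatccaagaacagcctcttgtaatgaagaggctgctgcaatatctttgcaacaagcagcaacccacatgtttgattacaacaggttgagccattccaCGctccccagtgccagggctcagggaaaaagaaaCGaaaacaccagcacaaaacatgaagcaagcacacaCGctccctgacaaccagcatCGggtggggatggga
The Adgrl1 window holds 21 CpG dinucleotides and is 68.8% G or C. The Tenm4 window holds 4 and is 50.8% G or C, and the median over 32851 windows of the same length is 6. The windows inside genes held 36, 18 and 18 for Adgrl3, 8 for Tenm3 and 8 for another Tenm4 start. They held 3 for Adgrl2, 2 for Tenm2 and 0 for Tenm1. Adgrl1 was the member that varied least between the regions, by 1.42-fold. Tenm4 varied by 2.20-fold, or 1.14 log2 units, by the probe set that stood for it. By its other probe set it varied by 2.02 log2 units. Whether CpG content goes with the spread was not tested. The array did not measure methylation or binding at any of these windows.

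The highest region differed between the families, by leads that were partly small. All 4 teneurin genes read highest in the superior colliculus, the visual part of the midbrain roof, where 24.0% of all compared genes read highest. The lead over the next region was 0.95 for Tenm3 and 0.64 for Tenm2, but 0.17 for Tenm1 and 0.07 for Tenm4, which are inside the noise range. All 3 latrophilin genes read highest in the pontine nucleus, against 28.4% of compared genes, though for Adgrl1 the lead was 0.02 and turned to the superior colliculus under other scalings. All 3 read lowest in the bulb, against 17.7% of compared genes. Of the 7 members, 5 differed by at least 1 log2 unit between their highest and lowest array, which 15.0% of compared genes did. These were Tenm2, Tenm3, Tenm4, Adgrl2 and Adgrl3, and the median spread was 1.42 for teneurins and 1.43 for latrophilins, against 0.39 for all compared genes.

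**Figure D1:**
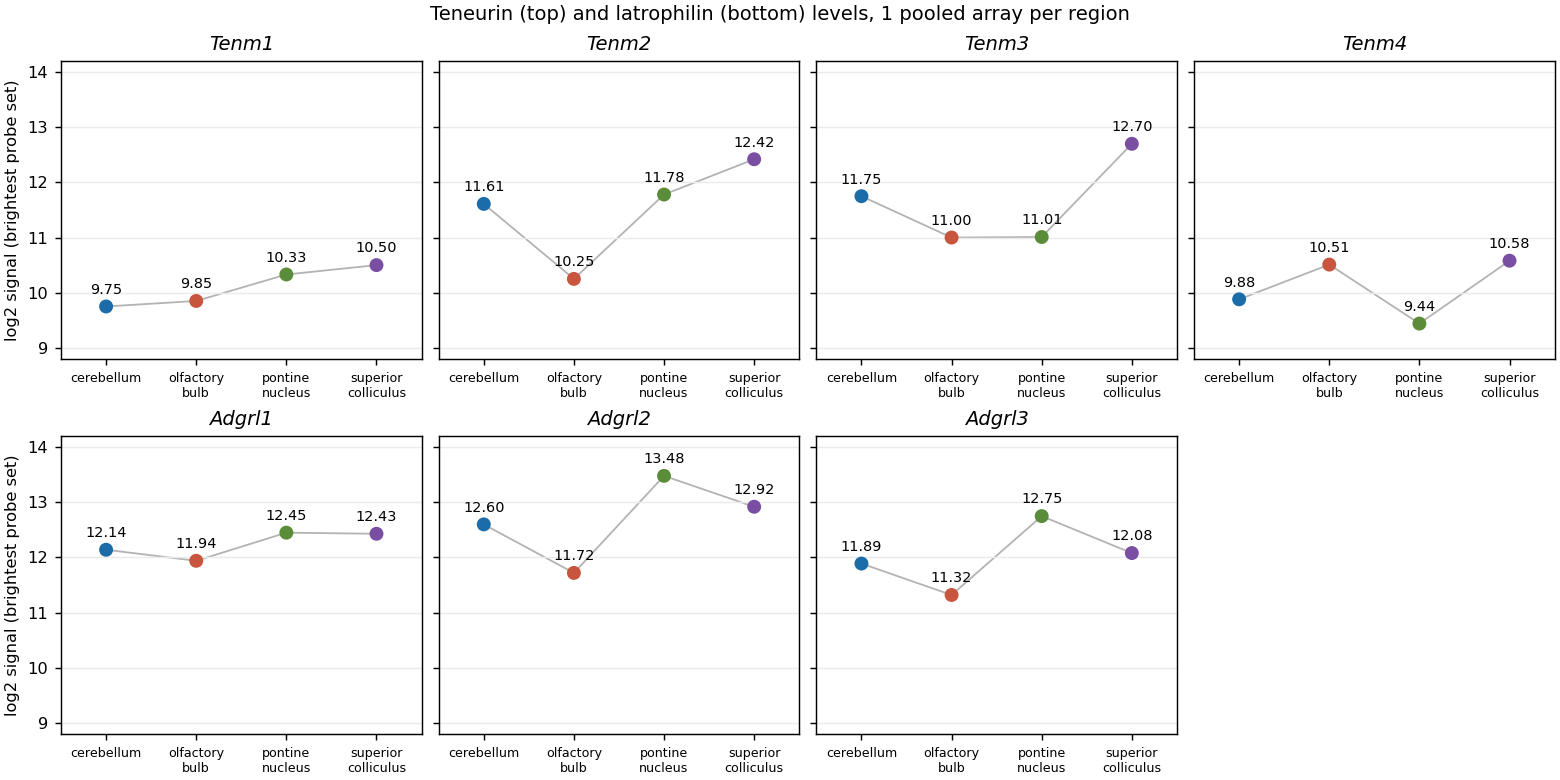
Log2 signal of each teneurin gene (top row) and latrophilin gene (bottom row) on the 4 arrays, 1 point per region with its value, where each point is 1 pooled array and there is no error bar. The superior colliculus is the highest point in all 4 teneurin panels, and the olfactory bulb is the lowest in all 3 latrophilin panels; heights should not be compared between genes, whose probes differ.

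By the probe set that stood for each gene, Tenm2 (probe set 10385203) varied most of the 7, though Adgrl2 varied more by the mean of its probe sets, 2.56 against 2.17 log2 units. Tenm2 read 12.42 in the superior colliculus, 11.78 in the pontine nucleus, 11.61 in the cerebellum and 10.25 in the bulb. The bulb stood apart as the single low region, 1.36 log2 units below the next region, and the superior colliculus was 4.50-fold above it. This was the only call among the members of a region at least 1 log2 unit below or above all 3 others. Such a low reading in the bulb occurred in 0.431% of compared genes. Calls of a single low region elsewhere, which no member had, were made for 0.981% in the pontine nucleus, 0.165% in the superior colliculus and 0.156% in the cerebellum. A single high region, which no member had either, was called for 0.972% in the bulb, 0.798% in the pontine nucleus, 0.715% in the superior colliculus and 0.605% in the cerebellum. The pontine nucleus and the cerebellum differed by 0.17, which is inside the noise range, while the superior colliculus lay 0.64 above the pontine nucleus. The spread of 2.17 was wider than that of 97.1% of compared genes.

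Tenm3 (probe set 10578649), which is known for wiring the retina to its visual targets, read 12.70 in the superior colliculus, 11.75 in the cerebellum, 11.01 in the pontine nucleus and 11.00 in the bulb. The superior colliculus was 0.95 above the cerebellum, just under the limit of 1 log2 unit for a call. With the columns centred on their medians the same gap reached the limit. The olfactory bulb and the pontine nucleus were equal to within 0.01. From lowest to highest the difference was 1.70, or 3.25-fold, and wider than that of 94.5% of compared genes.

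Tenm4 (probe set 10555007), a teneurin also known from oligodendrocyte maturation and myelination, had a different low region. It read 10.58 in the superior colliculus, 10.51 in the bulb, 9.88 in the cerebellum and, lowest, 9.44 in the pontine nucleus. The superior colliculus and the bulb differed by only 0.07, inside the noise range. A second probe set of this gene, 10554969, gave the same order, at 10.38, 10.32, 9.50 and 8.36. Its pontine level was 1.14 below the cerebellum, against 0.44 with the first probe set. The pontine call for Tenm4 therefore depends on the probe set, while both put the pontine nucleus at least 1 log2 unit below the bulb and the superior colliculus.

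Tenm1 (probe set 10604292), the X-linked teneurin, varied least in its family. It read 10.50 in the superior colliculus, 10.33 in the pontine nucleus, 9.85 in the bulb and 9.75 in the cerebellum. The regions formed 2 groups: the superior colliculus and the pontine nucleus were 0.17 apart, the bulb and the cerebellum 0.10 apart, and a step of 0.48 lay between. The spread was 0.75, or 1.68-fold, and was under the size limit.

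Of the receptors, Adgrl2 differed most. By its brightest probe set, 10502780, it read 13.48 in the pontine nucleus, 12.92 in the superior colliculus, 12.60 in the cerebellum and 11.72 in the bulb. The pontine nucleus was 3.39-fold above the bulb, a spread of 1.76 that was wider than that of 94.9% of compared genes. By this probe set the superior colliculus and the cerebellum were 0.32 apart, inside the noise range, but this was the smallest such gap. Over the 8 probe sets of the gene, cerebellum minus superior colliculus ran from -0.63 to -0.32. The median was -0.535, outside the noise range of 0.41.

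Adgrl2 was the member with the most internal evidence, since 8 probe sets measured it. All 8 of 8 gave the same order: pontine nucleus, superior colliculus, cerebellum, olfactory bulb. These probe sets share the same 4 RNA pools, so they check the measurement and not the animals. The difference between pontine nucleus and bulb ran from 1.76 to 3.26 over them, with a median of 2.64 (mean 2.56 ± 0.56, SD over 8 probe sets). The smallest differences came from the 2 probe sets with the highest mean levels, at 1.76 and 1.90, and the other 6 gave 2.30 to 3.26. The bulb lay at least 1 log2 unit below all 3 other regions by 5 of 8 probe sets, and with their mean, where it read 10.45 against 11.81 in the cerebellum. By the probe set used above, this gap was 0.88 and no call was made.

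**Figure D2:**
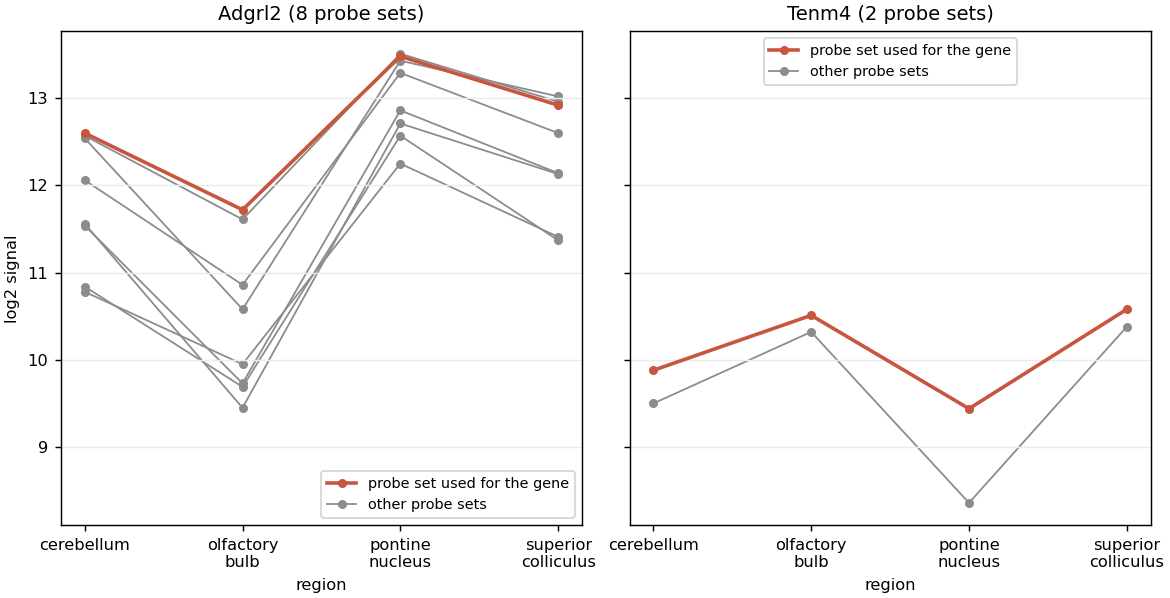
Log2 signal of every probe set of Adgrl2 (left, 8 lines) and Tenm4 (right, 2 lines) on the 4 arrays, with the probe set that stood for the gene in colour; lines join the 4 regions of 1 probe set. All lines of a gene put the regions in the same order, and the coloured Adgrl2 line has the narrowest spread, 1.76 log2 units.

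Adgrl3 (probe set 10522749), a latrophilin whose human counterpart has been studied in attention deficit disorder, followed the same order. It read 12.75 in the pontine nucleus, 12.08 in the superior colliculus, 11.89 in the cerebellum and 11.32 in the bulb. The pontine nucleus lay 0.67 above the superior colliculus and was 2.69-fold above the bulb. Superior colliculus and cerebellum were 0.19 apart and did not separate beyond the noise range. Centred on their own means, the 4 levels of Adgrl2 and Adgrl3 differed by a root mean square of 0.16 log2 units, and those of Tenm1 and Adgrl1 by 0.17, the closest pairs among the 7 genes. With the mean of the Adgrl2 probe sets, whose spread was wider, the first value was 0.46.

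Adgrl1 (probe set 10573234), the original receptor for the spider toxin alpha-latrotoxin, was nearly even. It read 12.45 in the pontine nucleus, 12.43 in the superior colliculus, 12.14 in the cerebellum and 11.94 in the bulb. Each step between neighbours in this order was 0.29 or less, inside the noise range, and the whole spread was 0.51. Its peak in the pontine nucleus rested on 0.02 log2 units, and with quantile normalization or median centring the superior colliculus read highest instead. The latrophilin count in the pontine nucleus is then 2 of 3, Adgrl2 and Adgrl3.

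Read by pairs of regions, most differences in the 2 families involved the olfactory bulb. Between bulb and pontine nucleus 4 of 7 members differed by at least 1 log2 unit, against 7.76% of compared genes. Tenm2 was higher in the pontine nucleus by 1.53, Adgrl2 by 1.76 and Adgrl3 by 1.43, while Tenm4 was higher in the bulb by 1.07. Between bulb and superior colliculus 3 of 7 differed (5.67% of compared genes), all lower in the bulb: Tenm2 by 2.17, Tenm3 by 1.70 and Adgrl2 by 1.20.

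Between pontine nucleus and superior colliculus the members past the limit were teneurins, and 1 of 8 probe sets of Adgrl2 also passed, in the other direction. Tenm3 and Tenm4 were lower in the pontine nucleus, by 1.69 and 1.14, which makes 2 of 7 members against 5.84% of compared genes. The 3 latrophilins were 0.02 to 0.67 higher in the pontine nucleus, under the limit, and the 0.02 of Adgrl1 changed sign under other scalings. Between cerebellum and bulb 1 of 7 passed, Tenm2, which was 1.36 higher in the cerebellum (4.52% of compared genes passed). No member passed between cerebellum and pontine nucleus or between cerebellum and superior colliculus, where 6.37% and 5.71% of compared genes did. The nearest were Adgrl2, 0.88 higher in the pontine nucleus, and Tenm3, 0.95 higher in the superior colliculus. By 5 of its 8 probe sets Adgrl2 did pass between cerebellum and pontine nucleus.

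**Figure D3:**
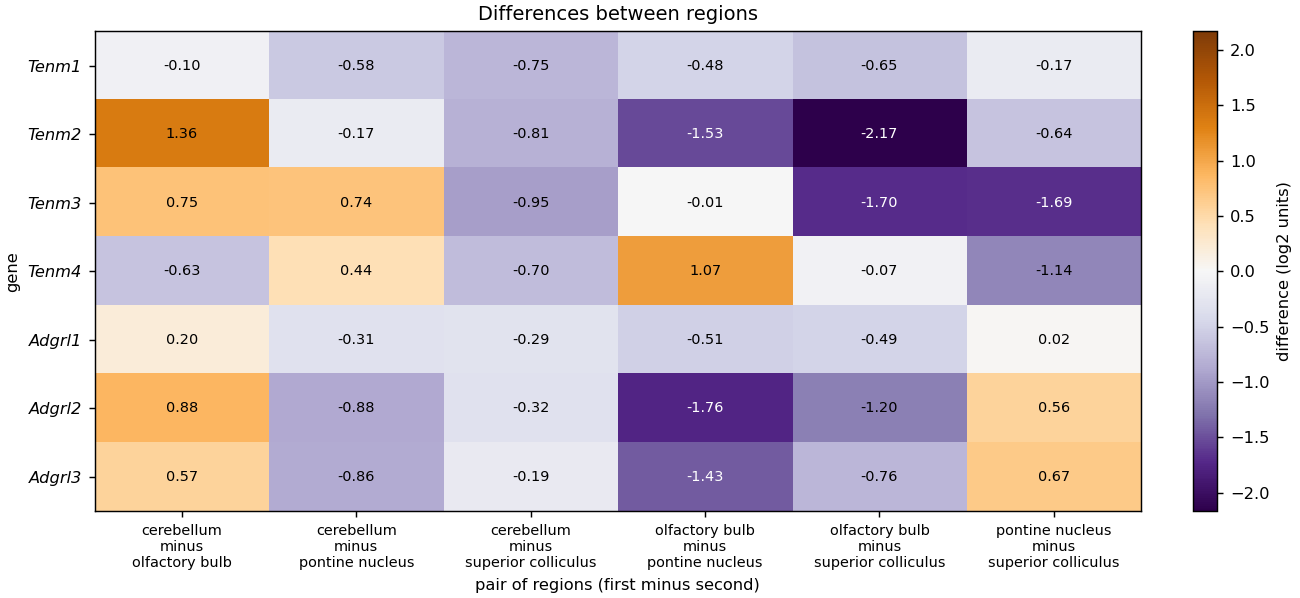
Differences in log2 signal between the 6 pairs of regions (columns, first minus second) for the 7 genes (rows), where orange means higher in the first region and purple higher in the second. The widest cell is Tenm2 between bulb and superior colliculus at -2.17, and the last column changes sign between the teneurin rows and the latrophilin rows (the 0.02 of Adgrl1 turns negative with other scalings).

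Against the mean of the other 3 arrays, teneurins in the superior colliculus had a median difference of 0.92, with 4 of 4 above it, where the median of all compared genes was 0. Latrophilins in the pontine nucleus had a median of 0.99 with 3 of 3 above, and in the olfactory bulb -0.92 with 3 of 3 below. The medians of all compared genes there were -0.0033 and 0.03. With 4 and 3 genes on single arrays, these medians describe the members and nothing further.

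Other cell populations also differed between the arrays. All 5 measured genes of dividing cells exceeded their average over the other arrays in both the cerebellum and the bulb, by medians of 1.60 and 0.79. They were below it in both the superior colliculus and the pontine nucleus, by medians of -1.37 and -1.07. Their levels ran from 9.61 to 10.93 in the bulb and from 7.99 to 9.27 in the superior colliculus. Radial glia and astrocyte genes exceeded that average for 6 of 6 in the cerebellum, 4 of 6 in the bulb, 1 of 6 in the pontine nucleus and 0 of 6 in the superior colliculus, with medians of 0.46, 0.51, -0.43 and -0.26. Each member read highest in the superior colliculus or the pontine nucleus, and dividing-cell, radial glia and astrocyte genes were mostly lower there. Oligodendrocyte precursor genes, which are also glial, went the other way, with 4 of 5 above that average on each of these arrays. Dividing-cell genes were highest in the cerebellum, yet the bulb was lowest for 5 of 7 members and the cerebellum for 1. The part of these cell types in the members' differences was not tested. In whole tissue, fewer cells of a type and less RNA per cell cannot be told apart.

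General neuronal genes had a median spread of 0.62. The widest was Nefm, a neurofilament gene, at 11.07 in the cerebellum and 8.45 in the bulb. Of 8 neuronal markers, 7 exceeded their average over the other arrays in the pontine nucleus (median 0.22), 4 in the superior colliculus (0.048), 2 in the bulb (-0.047) and 2 in the cerebellum (-0.25). Endothelial genes, of which 6 of 8 passed the floor, had medians between -0.19 and 0.08 over the 4 arrays. Adgrl4, the latrophilin relative found in blood vessels, read 9.23 in the bulb, 9.07 in the superior colliculus, and 9.01 in cerebellum and pontine nucleus alike, a spread of 0.22. Meningeal and fibroblast genes read higher in the bulb than on the average of the other arrays for 4 of 4 compared genes (median 0.50). So did 3 of 3 compared microglia genes, out of 5 measured, but their median of 0.27 was inside the noise range. Of all compared genes, 6084 of 10908 also exceeded that average in the bulb. Oligodendrocyte precursor genes read lower there for 4 of 5 (median -0.46). The part of these cell types in the low bulb levels of Tenm2 and the latrophilins was not tested.

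The list of partners held 16 measured genes, all above the floor, of which Adgrl4 is a relative of the latrophilins and the other 15 are reported to bind members of these families or their ligands. Of these, 6 had a spread of at least 1 log2 unit, against the 15.0% of compared genes given above. These were Flrt2, Flrt3, Unc5b, Unc5c, Nrxn3 and Cntn6, and 1 of them stood apart in a single region: Nrxn3 was lower in the pontine nucleus, a call that 0.981% of compared genes had.

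The FLRT genes encode the other latrophilin ligands, and all 3 read highest in the superior colliculus, as the teneurins did. This was not particular to them, since 8 of the 16 partners read highest there, against 24.0% of compared genes. Flrt2 read 10.92 in the superior colliculus, 10.67 in the pontine nucleus, 10.52 in the cerebellum and 9.60 in the bulb. Its low region was the bulb, which it shares with Tenm2, and the highest level was 2.50-fold above the bulb. Flrt3 read 9.83 in the superior colliculus, 9.41 in the bulb, 9.38 in the cerebellum and only 8.68 in the pontine nucleus, which lay 0.70 below the next region. Its low region was that of Tenm4, and the Flrt3 level there was close to the floor of 8.56. Flrt1 read 9.56, 9.24, 8.99 and 8.73 in that order of regions, with steps of 0.32 or less between neighbours. The superior colliculus lead over the next region was 0.25 for Flrt2, 0.32 for Flrt1 and 0.42 for Flrt3, so only the last was outside the noise range, and only just.

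Of the UNC5 netrin receptors, which bind FLRT proteins, 2 of 4 passed the spread limit, against 15.0% of compared genes. These 2 peaked in different places. Unc5c read 12.36 in the pontine nucleus, 12.21 in the cerebellum, 10.67 in the superior colliculus and 10.48 in the bulb, so cerebellum and pontine nucleus formed a high pair 1.54 above the rest. Unc5b was highest in the bulb at 9.66 and lowest in the superior colliculus at 8.61, the region in which the teneurins read highest. That lowest level was close to the floor of 8.56, and the Unc5b spread of 1.05 only just passed the limit. Unc5d read 11.05 in the superior colliculus against 10.15 to 10.24 elsewhere, and Unc5a 10.83 in the pontine nucleus against 10.20 to 10.39.

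Among the remaining partners, neurexins are presynaptic proteins reported to bind Adgrl1. Nrxn3 read 11.97 in the bulb, 11.62 in the cerebellum, 11.52 in the superior colliculus and 10.08 in the pontine nucleus. The pontine nucleus was thus 1.44 below the next region for Nrxn3. Adgrl2 and Adgrl3 read highest in that region, while Adgrl1 led there by only 0.02, which turned under other scalings. Nrxn2 varied by 0.66 and peaked in the superior colliculus at 12.28. Cntn6, a contactin of the immunoglobulin superfamily, read 9.69 in the superior colliculus against 8.53 to 8.92 elsewhere. Its lowest level, in the cerebellum, was just under the floor of 8.56.

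No intracellular or matrix partner passed the spread limit, which 15.0% of compared genes passed. With so few genes this is not a contrast with the other partners. Of the Shank scaffold genes, whose proteins bind the latrophilin tail, Shank1 had a spread of 0.72, Shank2 of 0.91 and Shank3 of 0.43. Shank1 and Shank3 read highest in the superior colliculus, by leads of 0.07 and 0.15 that are inside the noise range, and Shank2 read highest in the cerebellum by 2 of its 3 probe sets. Dag1, which encodes dystroglycan, varied by 0.18, and Mbd1, a methyl-CpG binding protein reported to bind the tail of teneurin-1, by 0.24.

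**Figure D4:**
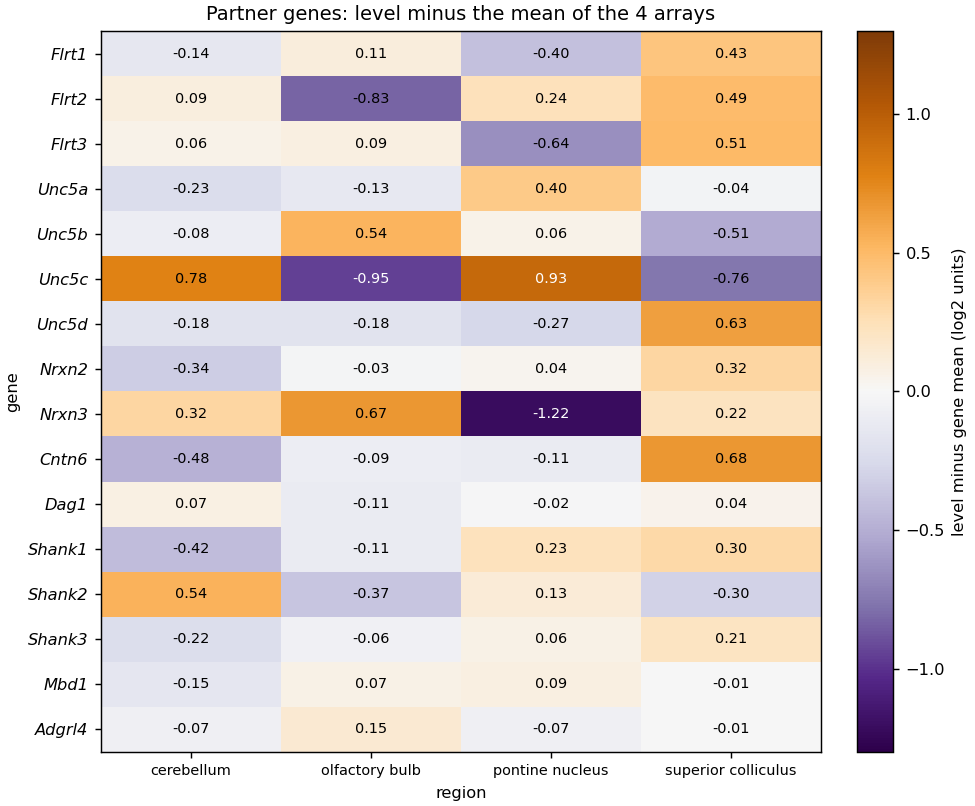
Level of each of the 16 partner genes in each region minus that gene's mean over the 4 arrays, in log2 units, with orange above and purple below the mean. The 3 Flrt rows are highest in the superior colliculus, the Unc5c row is high in pontine nucleus and cerebellum, and the Nrxn3 row is lowest in the pontine nucleus at 1.22 below its mean.

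For each of the 5 members past the spread limit, the genes with the most similar pattern were sought among 1576 other genes past it. The measure was the root mean square difference between the 4 levels, each gene centred on its own mean, and with 4 arrays many genes can be close. Closest to Tenm2 were Ephb1, an ephrin-B receptor gene (0.021 log2 units), Ntrk3, the receptor gene for neurotrophin-3 (0.18), and Samd12 (0.19). Ephb1 read 11.06 in the superior colliculus, 10.47 in the pontine nucleus, 10.26 in the cerebellum and 8.93 in the bulb. Its low bulb and high superior colliculus were those of Tenm2, which follows from its choice by pattern.

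Closest to Tenm3 were the neurokinin receptor gene Tacr3 (0.083), Kndc1 (0.086) and the vesicle-traffic gene Rab27b (0.11). Tacr3 and Rab27b exceeded the floor in the superior colliculus alone, and the bulb level of Tacr3, 7.22, was below 7.32, the 95th percentile of the background genes, so their closeness rests on weak signals. For Tenm4 they were Slc35g2 (0.056), Ankrd34a (0.059) and Rnf157 (0.071). For Adgrl2, by its brightest probe set, they were the sialyltransferase genes St6gal2 (0.062) and St8sia2 (0.071), and Nyap2 (0.088). St8sia2, which makes the polysialic acid carried by the neural cell adhesion molecule, read 12.16 in the pontine nucleus, 11.66 in the superior colliculus, 11.17 in the cerebellum and 10.30 in the bulb. For Adgrl3 they were Tub (0.019), the ATP-gated channel gene P2rx2 (0.026) and the somatostatin receptor gene Sstr1 (0.035). Some of these matches also reached below the floor of 8.56. In the pontine nucleus Slc35g2 read 8.02 and Ankrd34a 8.20, and in the bulb P2rx2 read 7.94 and Sstr1 8.40.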

How the data were processed

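Total RNA was purified with Trizol and RNeasy columns, turned into sense-strand cDNA and biotin-labelled, per the labels' protocols. Per the submitters' processing notes, the authors used Affymetrix Expression Console; how it summarised, corrected and normalized the signals, and the build, is not stated in the labels. The deposited values are log2 signals, a scale inferred from their range. The columns were taken as scaled between arrays by the authors, which can remove differences in total RNA, and strong signals can compress differences.

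Of 35556 probe sets, 21789 had 1 symbol in the platform's annotation of 2016, 1621 had several and were not used, and 12146 were unnamed here. A gene's level came from its probe set with the highest mean; 999 genes had several. Highest levels above the 50th percentile of gene levels (8.56) were required. A call needed 1 log2 unit against all 3 other arrays, or between the arrays of a pair, or from highest to lowest. No test was possible with single arrays, whose number limits the precision. All 7 members and the partners past the spread limit were to be named; for each member past it, the 3 genes closest in pattern were named. Other partners named with values were picked after these were seen. Predicted genes, small RNAs and olfactory and vomeronasal receptors were left out of the search for like patterns. The members, lists and limits were chosen with earlier results of these data known. Alternatives were no floor, a floor at the 75th percentile, quantile normalization, median centring, the mean of probe sets, limits of 2 and 0.5 log2 units, the mean of the other 3 arrays as comparator and, added after seeing the data, the probe set with the lowest mean. Python 3.11.15, NumPy 2.4.6, pandas 2.3.3 and Matplotlib 3.10.9 were used.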

Additional observations from a re-analysis of the deposited data

How the results depend on the processing

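All 4 teneurins read highest in the superior colliculus, and all 3 latrophilins lowest in the olfactory bulb, under both other scalings. The other floors could not change this, since a floor does not reorder the regions of a gene and every member passed them. The choice of probe set could change only Adgrl2 and Tenm4, the members with several. Both kept their highest and lowest regions under both other choices. Under quantile normalization and median centring 2 latrophilins, not 3, read highest in the pontine nucleus. Quantile normalization changed no count of members by more than 1.5 times and moved no member's spread by more than 0.058 log2 units. Removing the floor could change no count of members, since all of them had passed it. Median centring made 1 member differ between cerebellum and superior colliculus and 1 higher in the superior colliculus than all others, in place of 0. The mean of the probe sets gave 2 members between cerebellum and bulb, 1 between cerebellum and pontine nucleus and 2 lower in the bulb. The probe set with the lowest mean gave 2 between cerebellum and pontine nucleus and 1 lower in the pontine nucleus, in place of 0. The spread of Adgrl2 was 2.56 by the mean of its probe sets and 2.30 by the one with the lowest mean, and that of Tenm4 was 1.58 and 2.02. Against the mean of the other arrays 1 member was higher in the pontine nucleus, 2 higher in the superior colliculus and 2 lower in the bulb. With the limit at 2 log2 units 1 member passed by spread, 1 between bulb and superior colliculus, and 0 between cerebellum and bulb, bulb and pontine nucleus, or pontine nucleus and superior colliculus, and 0 was lower in the bulb. With the limit at 0.5 the counts were 5 between cerebellum and bulb, 4 between cerebellum and pontine nucleus, 4 between cerebellum and superior colliculus, 5 between bulb and superior colliculus and 5 between pontine nucleus and superior colliculus, with 2 higher in the pontine nucleus, 2 higher in the superior colliculus and 3 lower in the bulb. Of the partners, 3 passed by spread with the floor at the 75th percentile, 12 with the limit at 0.5 and 0 with the limit at 2. The higher floor tests fewer genes and the limits change the rule itself; the cause of the other changes was not tested. No paired analysis was possible because each region has 1 array. With no replicates, none could be left out, and differences near the limit, such as that of Tenm3 in the superior colliculus, which was not called, are the least firm.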
